A study of Homo sapiens with 6 samples.

Results

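The glycolysis enzymes and the carriers of glucose and lactate were examined in K562 cells, a human erythroid leukemia cell line, after overnight iron chelation. The set comprised 39 genes chosen by name: the enzymes of each step from glucose to lactate, the regulators of the phosphofructokinase step, the carriers that bring in hexoses or export lactate, and a few genes named after a carrier or an enzyme. All 39 were found among 62252 annotated genes. The Chelator group (n = 3 libraries) was treated with 10 µM 21H7, an iron chelator that enters cells, and the DMSO group (n = 3) received the same volume of the solvent alone. Both groups shared the cell line, the medium and the serum, and no other cells were examined. Nothing in the labels states that the 3 libraries of a group came from separate cultures, so the p-values measure only the spread between these libraries, which may be technical.

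Glycolysis converts glucose to pyruvate in the cytosol, and lactate dehydrogenase then turns pyruvate into lactate and returns the cofactor NAD+ that the pathway needs. Most steps can be catalysed by several isozymes, which are encoded by separate genes, differ in their kinetics, and are expressed in different tissues. Many of these genes are known targets of the hypoxia-inducible factors (HIFs), and the hydroxylases that mark HIF subunits for degradation require iron. Mature red cells, which have no mitochondria, depend on glycolysis for their ATP.

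Iron chelation increased the mRNA of a carrier or an isozyme at most steps of the pathway. Among members that passed the test, the largest fold increases were in SLC2A6, ALDOC, SLC16A3 and ENO2, which are minor forms in these cells, while GAPDH, ALDOA, LDHA and PKM had the highest TPM in Chelator of the members that rose. Estimated counts were summed per gene, and 38 of the 39 members had enough counts to be tested. Of these, 19 were higher and 6 were lower at an adjusted p under 0.05 by DESeq2's Wald test, and 13 did not pass. Among all 25553 genes with an adjusted p, 18.5% were higher and 17.4% lower by the same rule. With the further requirement of a log2 fold change above 1, 6 members were called higher (SLC2A6, PFKFB4, ALDOC, ENO2, LDHA and SLC16A3), against a background of 7.81% of genes. No member was called lower, against 2.46%. edgeR's quasi-likelihood test also gave 0 lower calls. SLC2A8 was called lower when the GC and length trends were removed (log2 fold change -1.06), and SLC2A13 when the length offset was left out (-1.08). In all, 7 members were lower at an unadjusted p under 0.05 in DESeq2. The normalized counts of the groups did not overlap in 21 members that were higher and 6 that were lower, against 25% and 22.9% of all genes with an adjusted p. The median log2 fold change of the tested members was 0.24, compared with 0.02 for all genes. The split of the members depended on scaling: centring the libraries on the mean log2 value gave 13 higher and 8 lower, and removing trends with GC content and length gave 13 higher and 7 lower. Many members are highly expressed, and 20 of them were among the 2556 genes of highest count. In that stratum 22.7% of genes were higher and 45.0% lower, whereas 11 of the 20 members were higher and 2 were lower. Together, the 39 members took 1.19%, 1.32% and 1.20% of all TPM (the number of transcripts per 1e+06 transcripts, a level corrected for length) under DMSO and 1.67%, 1.54% and 1.58% under Chelator.

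**Figure D1:**
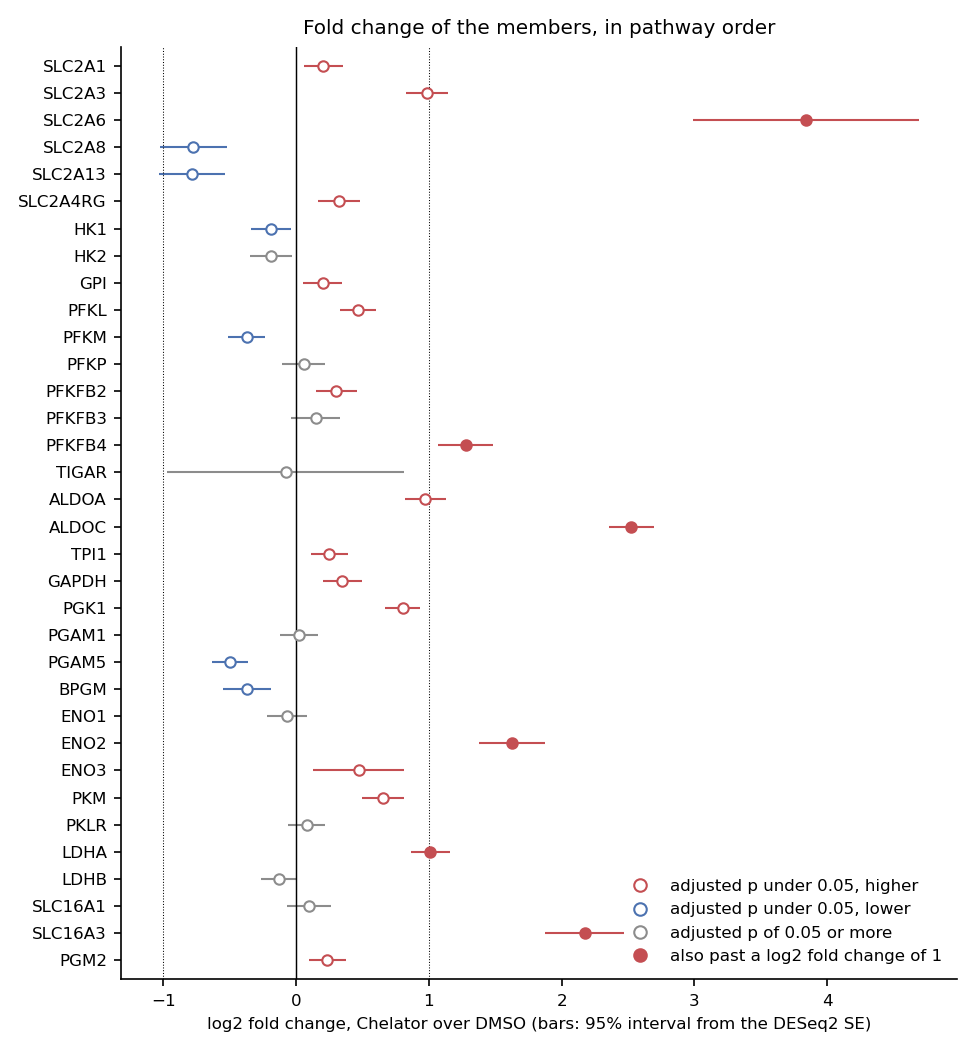
Log2 fold change (Chelator over DMSO) of the 34 members whose mean normalized count was 50 or more, in pathway order from carriers to lactate export, with bars for the 95% interval and dotted lines at 1 and -1. The filled points, from SLC2A6 at 3.84 to LDHA at 1.01, mark the 6 members called higher.

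The libraries held between 78.6 and 101 M estimated counts (M, 1e+06), and 31 members were at 1 TPM or more in every library. The mean fragment length inferred from the quantification was 264 to 274 bases in DMSO and 218 to 231 bases in Chelator. These ranges did not overlap, so the effects of treatment and of fragment length on short transcripts cannot be told apart. DMSO 2 and Chelator 1 stood apart within their groups: chi-square per gene was 63.5 and 44.3 between DMSO 2 and the other DMSO libraries, which were at 8.52 from each other, and 29.9 and 28.1 between Chelator 1 and the other Chelator libraries, which were at 6.54. Mitochondrial genes took 4.42% of the counts in DMSO 2, and 7.06% and 6.65% in DMSO 1 and 3. Without DMSO 2, 5 members were called, and without Chelator 1, 6. The treatment was visible in TFRC, the transferrin receptor, with log2 fold change 2.89 (SE 0.10, DESeq2 adjusted p = 3.32e-172). All 6 erythroid markers of K562 were expressed, of which 3 were higher, 1 was lower and 2 did not pass. Their summed level was 11539 to 12814 TPM in DMSO and 16283 to 17404 TPM in Chelator. A single marker reached 7146 TPM in a library, so the sum mainly reflects the most abundant ones. Of 10 markers of T cells, B cells, epithelium, fibroblasts and endothelium, 5 were higher and 3 lower, and their summed level went from 167 to 178 TPM in DMSO to 283 to 308 TPM in Chelator. KRT19 went from a mean of 81.1 to 195 TPM and CD3D from 12.8 to 39.8 TPM, both called higher, while EPCAM fell from 65.4 to 47.9 TPM. The B cell marker MS4A1 and the endothelial marker CDH5 had 0 counts in every library. The part of these markers in the members' changes was not tested. In bulk RNA, more RNA per cell and more cells of a kind cannot be told apart.

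Among the 6 sugar carriers, 3 were higher, 2 were lower and 1 did not pass. SLC2A1, which encodes GLUT1, the main glucose carrier of red cells, was the most abundant, at 240.4, 271 and 265 TPM in DMSO and 306, 299 and 309.6 TPM in Chelator. The Chelator libraries were all higher, but the rise was small (log2 fold change 0.21, SE 0.07, DESeq2 adjusted p = 0.018), and the log2 value was -0.08 after removal of the GC and length trends. SLC2A1 passed under 10 of 16 alternatives, and not with that removal, with centring on the mean, or without DMSO 1, DMSO 2, Chelator 1 or Chelator 3. SLC2A3, which encodes GLUT3, a carrier with high affinity for glucose, stood at 69.1, 79.5 and 69.0 TPM in DMSO and 131, 145 and 163 TPM in Chelator. It was upregulated 1.98-fold (95% interval 1.78 to 2.21, DESeq2 adjusted p = 3.80e-32), and its log2 fold change of 0.99 was just under the threshold for a call. SLC2A3 shares 26.6% of its 31-base sequences with its neighbour SLC2A14, whose counts of 85, 74 and 114 in DMSO and 614, 645 and 673 in Chelator were small beside the 15220 to 34551 counts of SLC2A3.

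SLC2A6 (GLUT6, a hexose carrier of lysosomes; ENSG00000160326.14, chromosome 9, 133471094 to 133479127) had the largest fold change of the set at a very low level. It had 18, 12 and 9 counts in the DMSO libraries and 152, 126 and 129 counts in the Chelator libraries. This is a 14.3-fold rise (95% interval 7.96 to 25.8, DESeq2 adjusted p = 1.91e-17), yet its level in Chelator was only 0.87 to 1.29 TPM. Its log2 fold change of 3.84 was 4.45 without DMSO 1 and 3.17 without the length offset. The intracellular hexose carrier SLC2A8 fell from 9.42, 8.77 and 8.63 TPM to 5.31, 5.60 and 5.16 TPM, with log2 fold change -0.77 (SE 0.13, DESeq2 adjusted p = 1.91e-08). SLC2A13, which carries myo-inositol rather than glucose, fell by a similar amount, from 3.76, 4.27 and 4.16 TPM to 2.13, 2.35 and 2.77 TPM (log2 fold change -0.78, SE 0.13). SLC2A10 had 5, 3 and 0 counts in DMSO and 10, 21 and 14 in Chelator and did not pass (DESeq2 adjusted p = 0.083). SLC2A4RG is a transcription factor named for the insulin-responsive carrier gene and carries no sugar. Its log2 fold change was 0.33 (SE 0.08), which became -0.06 with the GC and length trends removed and 0.11 on transcripts of at least 600 bases, where it did not pass.

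The hexokinases, which trap glucose in the cell as glucose 6-phosphate, did not rise. HK1 was the main form, at 421, 495 and 434 TPM in DMSO and 426, 380.1 and 397 TPM in Chelator. The TPM ranges of the groups overlapped while the normalized counts did not, and HK1 passed in DESeq2 (log2 fold change -0.19, SE 0.08, adjusted p = 0.037) but not in edgeR (-0.15, adjusted p = 0.11), with TMM size factors, or without DMSO 1, DMSO 3, Chelator 2 or Chelator 3. HK2, the form that is inducible in many tumour cells, stood at 32.7, 42.1 and 34.9 TPM in DMSO and 34.6, 31.2 and 31.9 TPM in Chelator. Its log2 fold change was also -0.19 (SE 0.08, DESeq2 adjusted p = 0.057), with a 95% interval of 0.79 to 0.98 for the fold. HK2 passed as lower under 6 of 16 alternatives: centring on the mean (-0.29), the stricter count filter, no length offset, transcripts of at least 600 bases, and without DMSO 1 or Chelator 1. HKDC1 had between 3 and 16 counts in a library and did not pass. HK3 was not tested, with 2 counts in the library Chelator 2 and 0 in the others, where a count of 0 allows up to 3. GPI, the isomerase of the next step, had 473, 534 and 458 TPM in DMSO and 605, 549.8 and 560.4 TPM in Chelator, and rose 1.15-fold (95% interval 1.04 to 1.27, DESeq2 adjusted p = 0.022). With the trends removed, its log2 fold change was 0.02 and it no longer passed, nor did it when the length offset was dropped, with centring on the mean, or without DMSO 2, DMSO 3 or Chelator 1.

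At the phosphofructokinase step, which commits sugar to glycolysis, the 3 isozymes went different ways. PFKL, the liver type, rose from 71.3, 81.5 and 73.9 TPM to 108, 103 and 108 TPM, with log2 fold change 0.47 (SE 0.07, DESeq2 adjusted p = 1.53e-10). PFKM, the muscle type, fell from 44.3, 51.5 and 46.3 TPM to 37.5, 37.3 and 37.1 TPM, with log2 fold change -0.37 (SE 0.07, DESeq2 adjusted p = 1.58e-06). PFKP, the platelet type and the most abundant of them in DMSO, had 86.8 to 100.03 TPM in DMSO and 95.9 to 104 TPM in Chelator and did not pass (log2 fold change 0.06, 95% interval of the fold 0.93 to 1.16).

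Fructose 2,6-bisphosphate, the strongest activator of phosphofructokinase, is made and removed by the PFKFB enzymes. PFKFB4 (ENSG00000114268.12, chromosome 3, 48517684 to 48562015) was upregulated from 5.18, 6.17 and 5.80 TPM to 15.4, 13.4 and 13.5 TPM. The fold change was 2.42 (95% interval 2.10 to 2.80, DESeq2 adjusted p = 2.37e-31), and every Chelator library was above every DMSO library. PFKFB2 rose less, from 10.4, 13.5 and 11.8 TPM to 14.6 to 15.2 TPM (log2 fold change 0.30, SE 0.08, DESeq2 adjusted p = 4.73e-04), and did not pass with centring on the mean (0.20) or without the length offset (0.12). PFKFB3, at 9.23, 13.0 and 9.42 TPM in DMSO and 12.1, 11.6 and 11.7 TPM in Chelator, did not pass (log2 fold change 0.15, 95% interval of the fold 0.97 to 1.26), except without DMSO 2 (0.23, DESeq2 adjusted p = 0.019). PFKFB1 and TIGAR, a phosphatase that removes the same activator, were under 1 TPM in every library and did not pass.

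Aldolase, which splits the 6-carbon sugar, showed the largest change in summed TPM of the 10 isozyme families. ALDOA went from 1411, 1519.8 and 1374 TPM in DMSO to 3042, 2726 and 2843 TPM in Chelator, with no overlap. Its rise was 1.96-fold (95% interval 1.76 to 2.18, DESeq2 adjusted p = 7.11e-33), and the log2 fold change of 0.97 left it just short of a call. ALDOA shares 54.8% of its 31-base sequences with other expressed genes, above all with a gene of the same locus, ENSG00000285043, which had 2807 to 5457 counts in a library against 127099 to 332022 for ALDOA. ALDOC (ENSG00000109107.14, chromosome 17, 28573115 to 28576948), the form known from brain, rose from 30.6, 30.6 and 27.4 TPM to 181, 173 and 167 TPM. This 5.75-fold rise (95% interval 5.12 to 6.46, DESeq2 adjusted p = 5.73e-186) rested on 2676 to 3418 counts in DMSO and 18189 to 22200 in Chelator, and ALDOC shares only 0.80% of its 31-base sequences.

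Of the 4 enzymes of the triose steps, 3 rose, each by less than 2-fold. TPI1, which interconverts the triose phosphates, rose from 407, 429.9 and 397 TPM to 504, 491 and 505 TPM (log2 fold change 0.25, SE 0.07, DESeq2 adjusted p = 0.00196), but did not pass with centring on the mean (0.15) or the trends removed (0.12). GAPDH, which oxidises glyceraldehyde 3-phosphate and is often used as a reference gene, stood at 2721, 2964 and 2683 TPM in DMSO and 3834, 3542 and 3494 TPM in Chelator. All its Chelator values exceeded all its DMSO values, and the fold change was 1.27 (95% interval 1.15 to 1.41, DESeq2 adjusted p = 2.42e-05), with an adjusted p of 0.054 once the trends were removed. PGK1, which makes the first ATP of the pathway, rose from 148, 159 and 143 TPM to 267, 272 and 261 TPM. Its fold change of 1.74 (95% interval 1.59 to 1.91, DESeq2 adjusted p = 6.09e-31) was the largest of this group. PGAM1, the mutase that follows, had 316, 362 and 332 TPM in DMSO and 364, 336 and 346 TPM in Chelator and did not pass (log2 fold change 0.02, 95% interval of the fold 0.92 to 1.12).

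A pair of genes related to PGAM1 by name or family fell. BPGM, which makes the 2,3-bisphosphoglycerate that lowers the oxygen affinity of hemoglobin, went from 17.7, 19.6 and 15.9 TPM to 13.8, 13.9 and 14.2 TPM (log2 fold change -0.37, SE 0.09, DESeq2 adjusted p = 2.89e-04). PGAM5, a mitochondrial protein phosphatase that takes no part in glycolysis, went from 133, 149.9 and 144 TPM to 97.9, 107 and 104 TPM (log2 fold change -0.50, SE 0.07, DESeq2 adjusted p = 9.28e-12).

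The main enolase did not pass, and the minor forms rose. ENO1 was the most abundant member in DMSO, at 3174, 3596 and 3277 TPM, against 3441, 3089 and 3253 TPM in Chelator. Its log2 fold change was -0.07 (95% interval of the fold 0.86 to 1.06), and the groups overlapped. With the trends removed it was -0.19 and passed (DESeq2 adjusted p = 0.038). ENO2 (ENSG00000111674.9, chromosome 12, 6913745 to 6923698), the neuronal form, rose from 4.48, 5.12 and 6.07 TPM to 16.4, 16.2 and 16.8 TPM, a fold change of 3.09 (95% interval 2.60 to 3.67, DESeq2 adjusted p = 2.13e-35). ENO3, the muscle form, had 5.55, 6.90 and 6.40 TPM in DMSO and 7.27, 8.74 and 10.7 TPM in Chelator (log2 fold change 0.47, SE 0.17, DESeq2 adjusted p = 0.021), and it no longer passed with centring on the mean (0.37), with the trends removed (0.24), or without DMSO 1, DMSO 2, Chelator 2 or Chelator 3.

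Pyruvate kinase makes the last ATP of the pathway. PKM rose from 402, 429.9 and 407 TPM to 701, 629.9 and 663 TPM, a fold change of 1.58 (95% interval 1.41 to 1.76, DESeq2 adjusted p = 9.16e-15). PKLR, the liver and red cell form, did not pass, at 47.9, 54.6 and 50.4 TPM in DMSO and 54.04 to 55.8 TPM in Chelator (log2 fold change 0.08, 95% interval of the fold 0.96 to 1.16).

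PKM makes the M1 and M2 forms of the enzyme by including one or the other of a pair of mutually exclusive exons, and the M2 form is the one typical of proliferating cells. The exons have 167 bases each and lie on the minus strand of chromosome 15 (GRCh38), the M1 exon at chr15:72203022-72203188 and the M2 exon at chr15:72202454-72202620. They are shown because, within the exons, the forms differ only at 62 positions, given in capitals. The other 105 (62.9%) are identical. The shares below are sums over whole transcripts, so differences elsewhere in those transcripts also entered the assignment of reads.
M1 exon: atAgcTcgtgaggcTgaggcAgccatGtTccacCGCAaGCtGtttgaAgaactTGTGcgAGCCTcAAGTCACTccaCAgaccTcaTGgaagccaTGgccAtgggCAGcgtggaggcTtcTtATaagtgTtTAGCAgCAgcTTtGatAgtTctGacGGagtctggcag
M2 exon: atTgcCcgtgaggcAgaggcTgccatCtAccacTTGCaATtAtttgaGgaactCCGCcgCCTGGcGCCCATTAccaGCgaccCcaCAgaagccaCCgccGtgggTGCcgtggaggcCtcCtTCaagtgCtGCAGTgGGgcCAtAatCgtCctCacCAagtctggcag
The differing positions are spread over the whole exon. Of the TPM of transcripts holding either exon, the M1 exon took 1.32%, 1.26% and 1.30% in DMSO and 1.12%, 1.41% and 1.37% in Chelator. The groups overlapped, with means of 1.30% ± 0.03 and 1.30% ± 0.16 (SD, n = 3; exact two-sided permutation p = 1.0). Transcripts with the M2 exon went from 256 to 291 TPM in DMSO to 386 to 437 TPM in Chelator, and those with the M1 exon from 3.38 to 3.73 TPM to 4.93 to 5.61 TPM.

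Lactate dehydrogenase and the lactate carriers divided by isoform. LDHA (ENSG00000134333.15, chromosome 11, 18394560 to 18408425), the form that favours pyruvate reduction to lactate, rose from 619, 698 and 641 TPM to 1406, 1268 and 1351 TPM. The fold change was 2.02 (95% interval 1.82 to 2.24, DESeq2 adjusted p = 3.69e-38), with no overlap between the groups. Its log2 fold change of 1.01 was close to the threshold, and it was 0.79 without the length offset, 0.91 with centring on the mean, 0.91 on transcripts of at least 600 bases, 0.98 without DMSO 2 and 0.96 without Chelator 1, each with an adjusted p under 0.05 but no call. LDHB, the form common in oxidative tissue, did not pass, at 686, 738 and 667 TPM in DMSO and 665, 641 and 645 TPM in Chelator (log2 fold change -0.13, 95% interval of the fold 0.83 to 1.01), although it passed as lower with centring on the mean (-0.23) and without DMSO 2 (-0.17) or Chelator 1 (-0.16).

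SLC16A3 (ENSG00000141526.18, chromosome 17, 82217934 to 82261129) encodes MCT4, the carrier that exports lactate from glycolytic cells. It had 243, 248 and 204 counts in DMSO and 1021, 1006 and 989 in Chelator, or 0.82, 1.38 and 1.00 TPM against 4.81, 4.61 and 5.07 TPM. This was a 4.51-fold rise (95% interval 3.67 to 5.54, DESeq2 adjusted p = 2.87e-44). Of its 31-base sequences, 16.3% also occur in CSNK1D, which overlaps it. CSNK1D had 13500, 12049 and 11484 counts in DMSO and 19356, 22650 and 19389 in Chelator, so its counts were far larger and also higher in Chelator. The part of CSNK1D in the rise of SLC16A3 was not tested. SLC16A1, which encodes MCT1, the carrier of lactate and pyruvate in either direction, was far more abundant and did not pass, at 181, 187 and 166 TPM in DMSO and 185, 187 and 212 TPM in Chelator (log2 fold change 0.10, 95% interval of the fold 0.96 to 1.20).

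**Figure D2:**
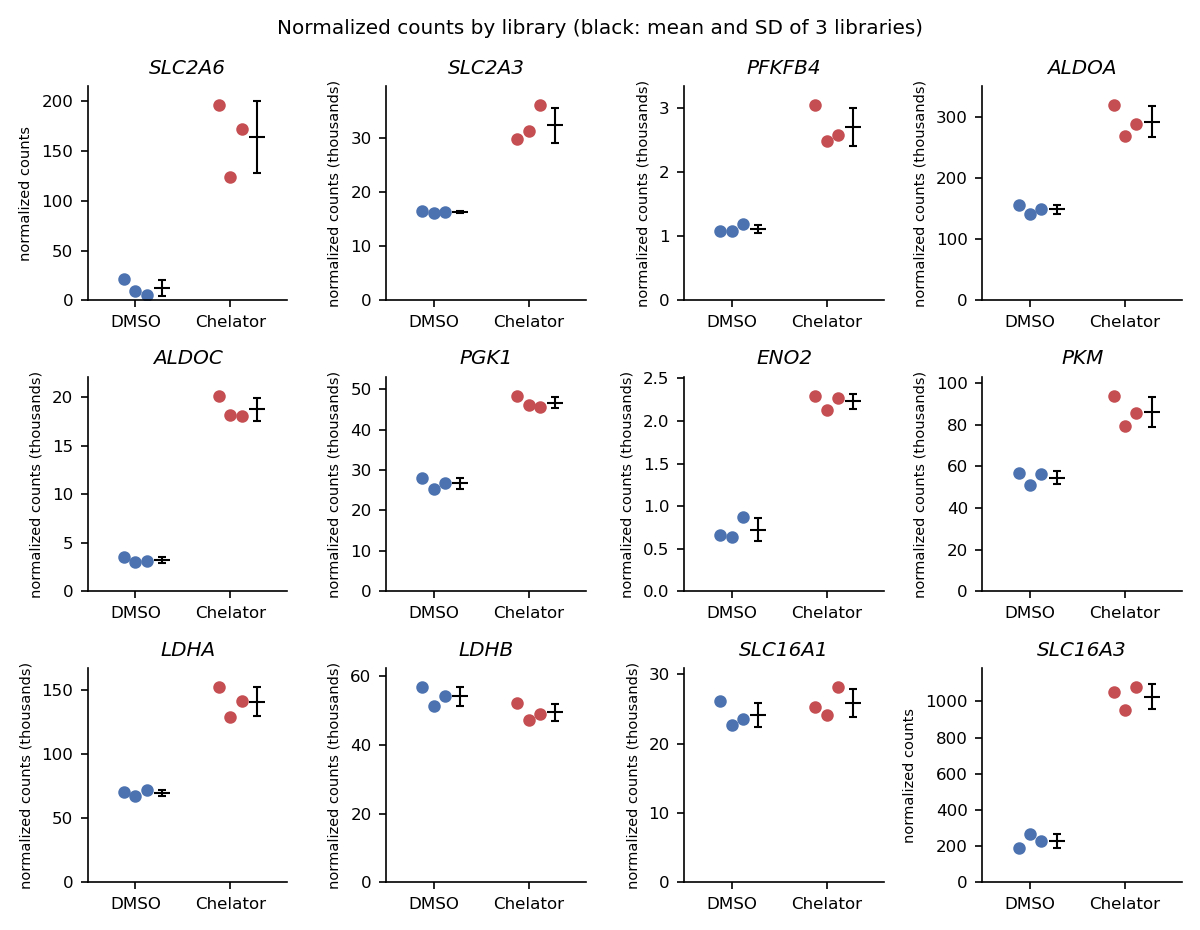
Normalized counts of 12 members in each library (points), with the mean and SD of the 3 libraries of each group in black; every axis starts at 0, and 10 of the genes have axes scaled by 1000. The Chelator libraries lie above all DMSO libraries for 10 of the 12 genes, while LDHB and SLC16A1 overlap. The 12 genes were chosen by name and do not represent the set. Of the 38 members tested, the groups did not overlap in 21 that were higher and 6 that were lower. None of these 6 is shown. Over all genes with an adjusted p, 25% were higher and 22.9% lower without overlap.

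Because TPM is corrected for length, isozymes of a step can be compared with each other. The share of each isozyme in the summed TPM of its family was computed per library for 30 isozymes of 10 families. With 3 libraries against 3, the exact two-sided permutation test cannot go below p = 0.10, or 0.13 after Benjamini-Hochberg adjustment over the 30 shares, and 23 shares reached this smallest value. These are not 23 separate results, because the shares of a family add up to the whole. In a pair such as LDHA and LDHB, 1 share mirrors the other. Groups without overlap were also common among all genes, in normalized counts rather than shares (25% higher and 22.9% lower). The largest shift was in lactate dehydrogenase, where LDHA made up 47.4%, 48.6% and 49.0% of the family in DMSO and 67.9%, 66.4% and 67.7% in Chelator. LDHB was thus slightly ahead of LDHA in every DMSO library and behind it in every Chelator library, and the summed level of the pair was 1.48-fold higher in Chelator. PFKFB4 went from a mean of 20.4% ± 1.3 to 34.4% ± 1.4 of its family (SD, n = 3), close to PFKFB2 at 36.5% ± 1.0. SLC2A3 went from 21.0% ± 1.0 to 31.8% ± 2.2 of the sugar carriers and SLC2A1 from 75.1% ± 1.1 to 66.3% ± 2.2, although SLC2A1 had 59.0% (DMSO) and 56.0% (Chelator) of its TPM in transcripts shorter than 600 bases. On transcripts of at least 600 bases, the share of SLC2A3 rose by 7.70 points instead of 10.7. PFKL went from 34.7% ± 0.7 to 43.5% ± 0.3 of the phosphofructokinases and exceeded PFKP in every Chelator library. PFKP went from 43.6% ± 1.2 to 41.2% ± 0.6, and PFKM from 21.7% ± 0.5 to 15.3% ± 0.5. Transcripts shorter than 600 bases held 47.7% (DMSO) and 44.3% (Chelator) of the TPM of PFKM, but only 5.45% and 6.44% of its counts. The difference in the share of PFKP was -2.35 points, but -0.13 on protein-coding transcripts and -4.04 on transcripts of at least 600 bases.

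The families with a dominant form kept it. ALDOC reached 5.71% ± 0.22 of the aldolases from 2.02% ± 0.09, SLC16A3 reached 2.42% ± 0.10 of the lactate carriers from 0.60% ± 0.14, and ENO2 reached 0.50% ± 0.02 of the enolases from 0.16% ± 0.02. The share of SLC16A3 rose by 1.83 points, and by 3.69 on transcripts of at least 600 bases. PKM took 89.0% ± 0.3 of pyruvate kinase in DMSO and 92.4% ± 0.3 in Chelator. The hexokinase shares overlapped, with HK2 at 7.49% ± 0.32 in DMSO and 7.51% ± 0.07 in Chelator. In summed TPM, the aldolases rose most (2.08-fold), followed by pyruvate kinase (1.55-fold), lactate dehydrogenase and the PFKFB enzymes (1.45-fold), while the ratios of hexokinases (0.89) and enolases (0.98) were below 1 with overlapping groups. In absolute level the largest differences were those of ALDOA (1436 TPM), GAPDH (834 TPM) and LDHA (689 TPM).

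**Figure D3:**
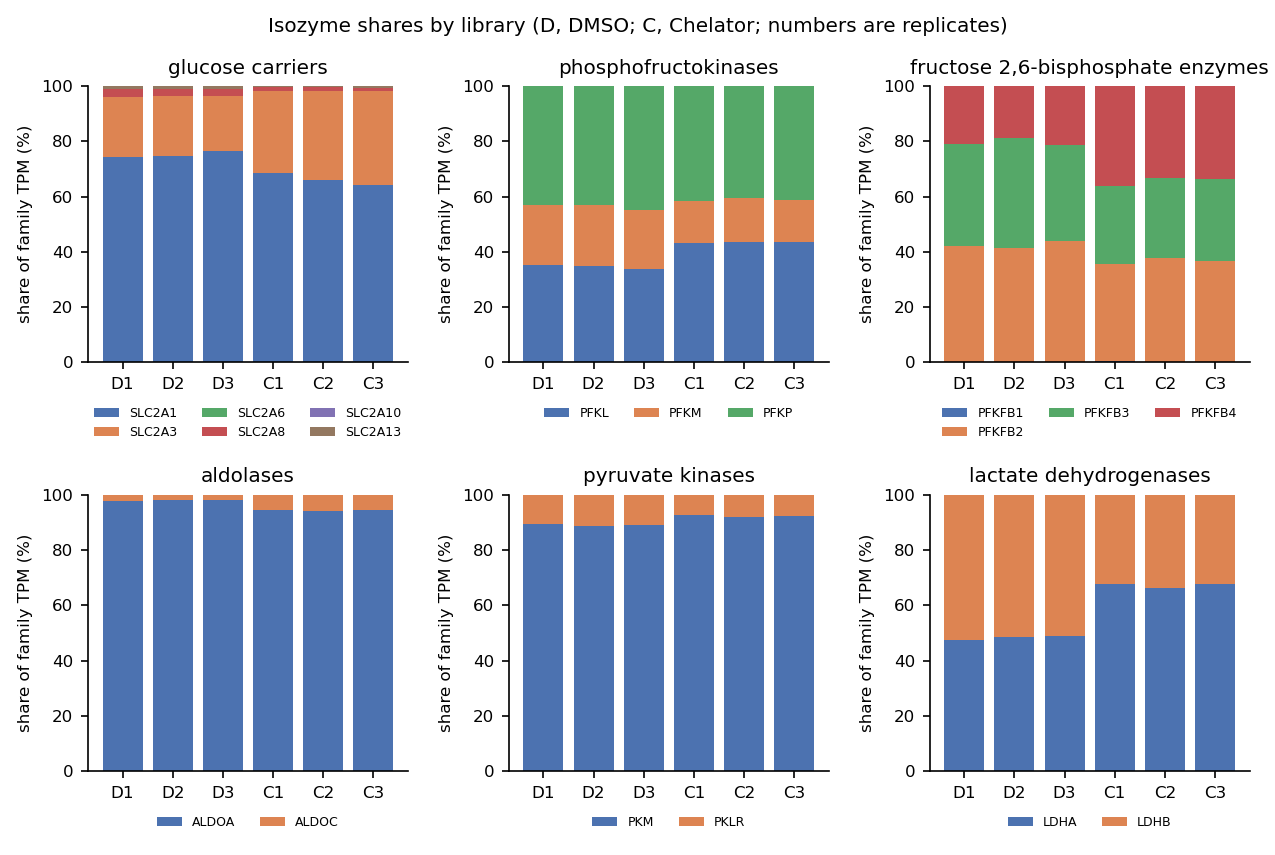
Share of each isozyme in the summed TPM of its family (percent) in each of the 3 DMSO (D) and 3 Chelator (C) libraries, for 6 families. LDHA goes from below 50% to above 66% of the lactate dehydrogenases and PFKFB4 from about 20% to about 34% of its family, while ALDOA and PKM stay dominant.

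Gene sums hide which transcript is made, so the usage of transcripts was compared by diffSpliceDGE of edgeR in the 33 members with more than 1 countable transcript. Calls needed a Simes p under 0.05 after Benjamini-Hochberg adjustment and a transcript share that moved by over 5 percentage points. Of the 33, 6 were called (SLC2A1, SLC2A3, GPI, LDHA, SLC16A1 and PGM2), against 9.22% of all 11938 genes tested. SLC2A1, GPI and LDHA were called under all 11 alternative settings.

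In LDHA, the 2241-base transcript LDHA-205 took 67.4%, 67.4% and 64.5% of the gene's TPM in DMSO and 50.1%, 45.6% and 38.2% in Chelator. The coding transcript LDHA-206, of 1310 bases and with an earlier 3′ end, went from 17.4%, 16.1% and 22.0% to 28.5%, 27.3% and 29.3%. LDHA-222, annotated as subject to nonsense-mediated decay, was at 0%, 0% and 0.10% in DMSO and at 1.30%, 5.92% and 8.33% in Chelator and thus varied widely among the Chelator libraries. The adjusted p for LDHA was 1.59e-13 (edgeR). Tested singly, LDHA-222 passed (edgeR adjusted p = 5.99e-14), whereas LDHA-205 and LDHA-206 did not (1.0 and 0.25). In GPI, the longest transcript, GPI-201, fell from 15.4%, 17.0% and 18.0% to 7.17%, 7.13% and 7.16%, while GPI-221, another transcript annotated for nonsense-mediated decay, rose from 8.91%, 6.36% and 7.46% to 16.5%, 18.7% and 18.1%. The adjusted p was 1.68e-06 for the gene GPI, and 2.96e-06 and 6.60e-07 for these transcripts tested singly (edgeR).

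In SLC2A1, the 578-base retained-intron transcript SLC2A1-202 fell from 35.9%, 38.7% and 37.6% to 22.9%, 18.1% and 13.8%, and the 271-base SLC2A1-214 rose from 19.8%, 18.4% and 23.8% to 31.2%, 36.9% and 41.1%. These short transcripts weigh heavily in TPM: SLC2A1-214 had only 165 to 261 counts in DMSO and 655 to 1007 in Chelator. Tested singly, neither passed (edgeR adjusted p = 0.11 for SLC2A1-202 and 0.071 for SLC2A1-214). Transcripts of SLC2A1 that passed included the retained-intron SLC2A1-215, which fell from a mean of 6.41% to 2.18% (edgeR adjusted p = 1.10e-04), and the canonical coding SLC2A1-203, which fell from 7.21% to 3.89% (0.031). In SLC2A3, the 589-base transcript SLC2A3-211, annotated for nonsense-mediated decay, had at most 0.31% in DMSO and 0.92%, 18.4% and 28.5% in Chelator. The call for SLC2A3 was lost without Chelator 1, without Chelator 2 and without Chelator 3 (edgeR adjusted p = 0.44, 1.0 and 1.0), with limma, and on transcripts of at least 600 bases (edgeR adjusted p = 1.0, largest share change 2.20 points), and Chelator 1 lay close to the DMSO libraries. The call for PGM2 was lost when any library but DMSO 3 was left out, and that for SLC16A1 was lost on transcripts of at least 600 bases, where no share moved by over 1.72 points. SLC16A1-205, a transcript of 452 bases, overlapped between the groups and did not pass singly (edgeR adjusted p = 0.10). In all 6 called members the longest transcript lost share, from 0.20 points in SLC16A1 to 21.8 points in LDHA. Among the 33 members tested, 21 (63.6%) had a longest transcript that lost share, near the 55.6% of all genes. PKM was not called (edgeR adjusted p = 0.12 for the gene), with its retained-intron transcript PKM-207 at 12.9%, 11.1% and 16.3% in DMSO and 19.8%, 19.8% and 20.1% in Chelator. It was called by limma's diffSplice (adjusted p = 1.76e-04), and by edgeR on transcripts of at least 600 bases (adjusted p = 0.036), without DMSO 3 (0.039) and without Chelator 1 (0.046). HK1 was not called, and HK1-201 took 47.3%, 47.6% and 46.9% in DMSO and 54.2%, 50.2% and 52.7% in Chelator (edgeR adjusted p = 0.92 for the gene), but limma's diffSplice called it (adjusted p = 0.0092).

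**Figure D4:**
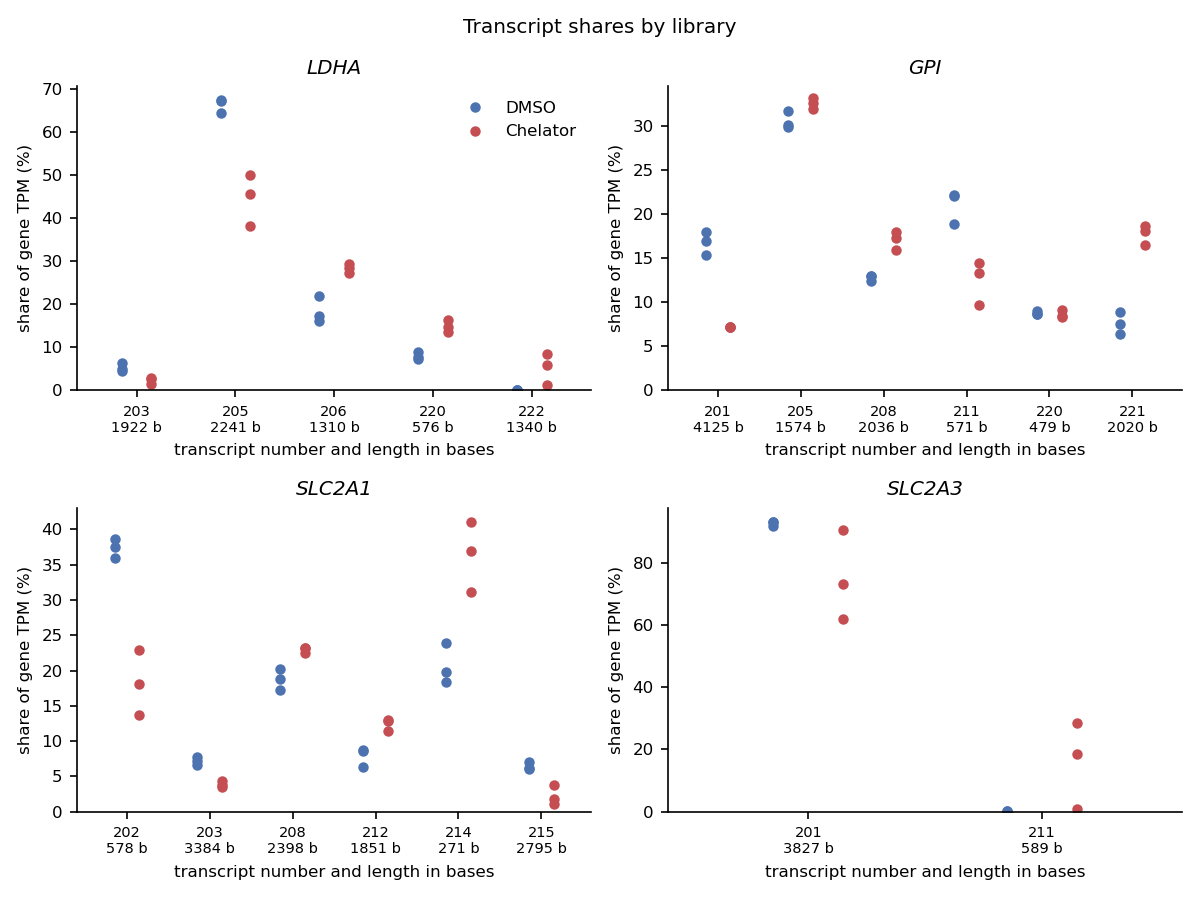
Share of the gene's TPM (percent) taken by the main transcripts of LDHA, GPI, SLC2A1 and SLC2A3 in each library (points), with transcript number and length in bases on the horizontal axis. LDHA-205 and GPI-201 are lower in all Chelator libraries, and SLC2A3-211 is spread from 0.92% to 28.5% among them.

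The promoters of the members were searched for ACGTG and GCGTG (on the other strand CACGT and CACGC), the core letters of the site that HIF binds. Both strands were searched, so the palindrome CACGTG counts on each. RefSeq windows (GRCh38.p14) reaching from 250 bases before to 50 bases after a start site were at hand for 36 members, with 66 windows, some of which overlap. A match was present in 41 of them (62.1%), compared with 48.4% of 35116 windows of all genes, and ACGTG alone in 24 (36.4%) compared with 21.4%. For the 17 members with a window that were higher at an adjusted p under 0.05, 21 of 26 windows (80.8%) held a match, and 12 (46.2%) held ACGTG. For the 6 members called higher, 9 of 11 windows (81.8%) held a match. ACGTG was in 4 of these 11 (36.4%), the same share as in all member windows. A link between matches and the changes was not tested. The bases before the start are shown for LDHA and ALDOC, both called higher and both rich in matches. They are also shown for HK2, which is rich in matches too and was not higher in Chelator. The capitals mark the matches.
LDHA promoter, chr11:18394313-18394562, plus strand: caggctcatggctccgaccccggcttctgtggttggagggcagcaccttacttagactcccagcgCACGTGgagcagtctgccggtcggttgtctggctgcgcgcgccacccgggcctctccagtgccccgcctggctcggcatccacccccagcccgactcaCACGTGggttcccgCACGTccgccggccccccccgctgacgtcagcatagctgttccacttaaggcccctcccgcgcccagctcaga
ALDOC promoter, chr17:28576896-28577145, minus strand: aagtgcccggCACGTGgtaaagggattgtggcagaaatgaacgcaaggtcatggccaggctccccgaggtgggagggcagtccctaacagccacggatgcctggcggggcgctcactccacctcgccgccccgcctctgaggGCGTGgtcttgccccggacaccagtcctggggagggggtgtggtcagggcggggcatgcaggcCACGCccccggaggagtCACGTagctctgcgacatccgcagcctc
HK2 promoter, chr2:74834920-74835169, plus strand: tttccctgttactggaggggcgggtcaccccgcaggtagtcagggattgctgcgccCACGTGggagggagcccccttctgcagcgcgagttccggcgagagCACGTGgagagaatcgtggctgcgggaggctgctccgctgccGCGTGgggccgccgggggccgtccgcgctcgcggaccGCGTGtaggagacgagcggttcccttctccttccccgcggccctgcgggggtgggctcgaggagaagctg
The LDHA and ALDOC stretches hold 5 matches each, and that of HK2 holds 6, with a palindrome counted on both strands. With a palindrome counted as 1 site, the HK2 stretch does not hold more sites than that of ALDOC. A further window of LDHA holds 1 match, and a further window of HK2 holds 3. A match is a description of the letters only. SLC16A3 has 5 windows, of which 3 hold a match, and PGAM1 has 1 window with none.

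Genes that lead glucose carbon away from or on from the pathway were counted for context. PGM2, which interconverts sugar phosphates, rose slightly (42.3, 48.9 and 45.9 TPM to 52.5, 56.7 and 55.6 TPM, log2 fold change 0.24, SE 0.07) but did not pass with centring on the mean (0.13) or without the length offset (-0.02), while PGM1 had 5, 0 and 0 counts in DMSO and 6, 8 and 6 in Chelator and did not pass. Of 14 genes of pyruvate's further fate, 4 were higher and 4 lower at an adjusted p under 0.05, and the 4 higher ones were all called. They were PDK1 (log2 fold change 1.03, SE 0.09), PDK3 (2.05, SE 0.35) and PDK4 (3.23, SE 0.57), kinases that switch off pyruvate dehydrogenase, and GPT2 (1.54, SE 0.12), which makes alanine from pyruvate in mitochondria. Of 8 pentose phosphate genes, 3 were higher and 3 lower, and H6PD, the glucose 6-phosphate dehydrogenase of the endoplasmic reticulum, was called (log2 fold change 1.39, SE 0.16). DESeq2 called 0 of 12 genes of glycogen metabolism (4 higher and 3 lower at an adjusted p under 0.05, 7 and 3 at an unadjusted one) and 0 of 10 genes of the NADH shuttles and glycerol phosphate (2 higher and 4 lower, and 3 and 5 unadjusted). edgeR also called 0 of the latter and 1 of the glycogen genes, PPP1R3C, which had 0 counts in DMSO and 2 to 11 in Chelator. Among 23 further isozymes and carriers, 14 were tested, SLC2A14 (log2 fold change 2.56) and the kidney glucose carrier SLC5A2 (1.33) were called higher, and the insulin-responsive carrier SLC2A4 (-1.43) and the monocarboxylate carrier SLC16A7 (-1.86) were called lower.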

How the data were processed

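Polyadenylated RNA from K562 cells was sequenced as paired-end Illumina reads in 6 libraries, grouped by their labels. The authors quantified transcripts with Salmon 1.10.2 (submitters' processing notes). The deposited estimated counts (a read shared by transcripts is divided among them) and TPM values (counts per effective length, scaled per library) cover 252045 transcripts. The annotation and bias options used are not given in the sources used here. Transcripts were matched to GENCODE release 44 on GRCh38. The 433 unmatched ones held 0.139% to 0.150% of counts and were left out.

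Counts were summed per gene and rounded. Genes with a total above 10 were compared with DESeq2 1.42.0 (Wald test, median-ratio size factors, average transcript length as offset), adjusted over all genes with the Benjamini-Hochberg method. Calls required an adjusted p below 0.05 with a log2 fold change beyond 1 in either direction. Normalized counts carry the same factors. Transcript usage was tested with edgeR 4.0.16 on transcripts with at least 10 counts in 3 libraries. Isozyme and PKM exon shares used TPM and exact permutation tests. Scripts were tested on simulated data. Sequences of 31 bases shared with other expressed genes were counted to mark uncertain assignment. Promoters came from RefSeq, which had windows for 36 of the 39 members (GRCh38.p14).

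Every member is accounted for, and genes of other lists are named only where called, apart from cell markers and TFRC. The members and lists were chosen with earlier results of these data known. Alternatives covered the test, scaling, filters, length offset, GC and length trends, pseudogenes, short transcripts (chosen after seeing the data), a replicate block and each library left out. Each library counted as 1 replicate. Libraries of 1 group differed by more than sampling noise, but this cannot show whether the spread is technical or lies between cultures. Intervals cover the model's error only.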

Additional observations from a re-analysis of the deposited data

How the results depend on the processing

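SLC2A6, PFKFB4, ALDOC, ENO2 and SLC16A3 were called higher under all 16 alternatives run for gene expression, and LDHA under 11, with an adjusted p under 0.05 in all 16. ALDOA and SLC2A3 were called under 5 each. SLC2A8 (-1.06, with GC and length trends removed) and SLC2A13 (-1.08, without the length offset) were called lower under 1 each. Between 5 and 8 members were called, these lower calls included. Centring on the mean log2 value moved the median log2 fold change of all genes from 0.02 to -0.09. With that centring, PFKP (-0.045), PGAM1 (-0.081), PKLR (-0.023) and SLC16A1 (-0.0055) changed sign. With GC and length trends removed, SLC2A1 (-0.082), SLC2A4RG (-0.056), PFKP (-0.088), PGAM1 (-0.064), PKLR (-0.033) and TIGAR (0.17) did so, without the length offset SLC16A1 (-0.14) and PGM2 (-0.016), and on transcripts of at least 600 bases SLC16A1 (-0.14). TIGAR (-0.08) was at 0.019 with the replicate block. With 1 library left out, TIGAR ranged from -0.34 to 0.44 and PGAM1 (0.02) from -0.028 to 0.069. None of these reversed values passed. SLC2A1, HK1, GPI and ENO3 passed under 10 of 16 alternatives each, SLC2A4RG, PFKFB2, TPI1 and PGM2 under 14 and GAPDH under 15, while HK2 passed under 6, LDHB under 3, and PFKFB3 and ENO1 under 1. The cause was not tested.

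Usage calls over all genes numbered 1101, and 3184 with limma's diffSplice (12 members in place of 6, with SLC2A4RG, HK1, PFKM, PFKFB2, ENO3, PKM and SLC16A3 gained), 728 at 10 points and 539 to 1063 with 1 library left out (539 without Chelator 3 and 592 without Chelator 2, where 4 members were called). edgeR gained SLC16A3 without DMSO 2 and ENO2 without DMSO 3 (adjusted p = 3.27e-05 and 0.027). The share of SLC2A3 changed by 10.7 points, and by 8.10 on protein-coding transcripts and 7.70 on those of at least 600 bases. The share of PFKP changed by -2.35 points, and by -0.13 and -4.04 under these settings. SLC16A3 changed by 1.83 points, and by 2.88 and 3.69, and by 2.80 with annotated lengths. PKM changed by 3.33 points, and by 3.85 on protein-coding transcripts, and LDHA by 19.0 points, and by 17.5 on transcripts of at least 600 bases. The share of HK2 changed by 0.02 points, by -0.085 with annotated lengths and by -0.12 to 0.19 with 1 library left out, and the M1 exon share by 0.00054 points, by -0.063 in counts and by -0.056 to 0.091 with 1 library left out.

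Libraries of the same replicate number had correlations of -0.07, 0.13 and 0.10 in their deviations from the group means, and not every library was closest to its own number, so the numbers were not taken as pairs. With a replicate block, 6 members were called, 19 were higher and 6 lower as without it, and 923 genes (6 members) were called for usage. HK3, HKDC1, PGM1, PFKFB1, SLC2A10 and TIGAR had low counts and did not pass or were not tested, and the difference in fragment length between the groups limits statements on transcripts under 600 bases.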
